A study of Mus musculus with 10 samples.

Results

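Serpins are a family of proteins of which most inhibit proteases by a suicide mechanism. The protease cuts an exposed reactive centre loop, stays bound to the serpin through a covalent bond and is distorted as the cut loop folds into the body of the inhibitor. Clade A members are mostly secreted, many of them by the liver, clade B members lack a classical signal peptide and act largely inside cells, and a few members have no inhibitory activity and work as chaperones or carriers. In macrophages and other leukocytes clade B members guard the cytosol against proteases that leak from granules and lysosomes, while secreted members act on coagulation and complement.

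Serpin genes were taken by symbol, as every gene in the count files whose symbol is Serpin followed by a clade letter from a to i and a number. This gave 62 of 24538 genes after 2 further genes of the family were left out, which are not reported here. The genes were compared between metastasis-associated macrophages (MAMs) and resident alveolar macrophages (RAMs), with 5 libraries of each. All mice were wild-type C57BL6/J, 8 to 10 weeks old. MAMs came from metastases under 1 mm that grew in the lungs of female mice after E0771-LG cells, a mouse mammary cancer line, had been injected into the tail vein at 6 to 8 weeks of age, and the metastases of 2 to 4 mice were pooled for a sample. RAMs came from the normal lungs of untreated mice, so the comparison asks how macrophages of metastases differ from those that live in healthy lung. Both were sorted as large CD45+ F4/80+ MRC1+ cells that lacked LY6C, MAMs as CD11B+ CD11C- and RAMs as CD11B- CD11C+, and the tissue of both was digested in the presence of transcription inhibitors. Each library held between 50746305 and 87523247 counts on genes, so that 1 count stood for 0.0144 to 0.0224 CPM. CPM are counts per 1000000, from the counts on tested genes of each library times its normalization factor.

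The genes of the surface markers used for sorting were checked first. Itgam, which encodes CD11B, stood at 6270 ± 417 CPM in MAMs and 64.3 ± 5.04 CPM in RAMs (SD, n = 5 each), and Itgax, which encodes CD11C, at 171 ± 39.4 and 991 ± 91.8 CPM. Ptprc, which encodes CD45, was at 966 ± 29.8 and 1063 ± 39.4 CPM, Adgre1, the F4/80 gene, at 300.2 ± 43.0 and 232 ± 16.0 CPM, and Mrc1 at 1412 ± 140.0 and 2625 ± 68.1 CPM. Of the LY6C genes, Ly6c2 was at 10.5 ± 4.96 and 0.143 ± 0.0980 CPM and Ly6c1 at 1.67 ± 2.03 and 0.117 ± 0.108 CPM. Both were called higher in MAMs by edgeR, although the cells were sorted as lacking LY6C. Ly6c1 was at 5.19 CPM in MAM 3 and at most 1.34 CPM in the other MAM libraries. Which cells held these transcripts was not tested.

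MAMs and RAMs carried different serpin transcripts. MAMs held Serpinb8, Serpinb9, Serpinb6b, Serpinb10, Serpina3g, Serpina3f, Serpinb9b and Serpinh1 at fitted fold changes of 9.06 to 133 over RAMs, whereas the mean CPM of Serpinb1a in MAMs was 2.73% of that in RAMs and the mean CPM of Serpinc1 16.3%. Serpinb6a was abundant in both, and differed by less than 2-fold. In bulk samples such as these, fewer cells of a type and less RNA per cell cannot be told apart. Of the 62 genes, 36 had no count in any library, 26 had at least 1 count and 14 had a mean FPKM (fragments per kilobase of transcript, scaled to the mapped fragments of the library) of at least 1 in either group, which was the requirement for a test. With edgeR's quasi-likelihood test over 11571 genes, 8 of these 14 were higher in MAMs at a fold above 2 and an adjusted p under 0.05, where 15.3% of all genes tested were higher, and 2 were lower, where 15.1% were lower. Together 10 of the 14 were called, beside 30.3% of all genes tested. The median log2 fold change was 3.92 over the 14 genes and -0.02 over all genes. Of the 14, 11 reached the FPKM requirement in 1 group alone, which favours genes that differ, so that these counts do not describe the whole family. In 11 of the 14 the CPM ranges of the groups did not overlap, against 44.9% of all genes tested.

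**Figure D1:**
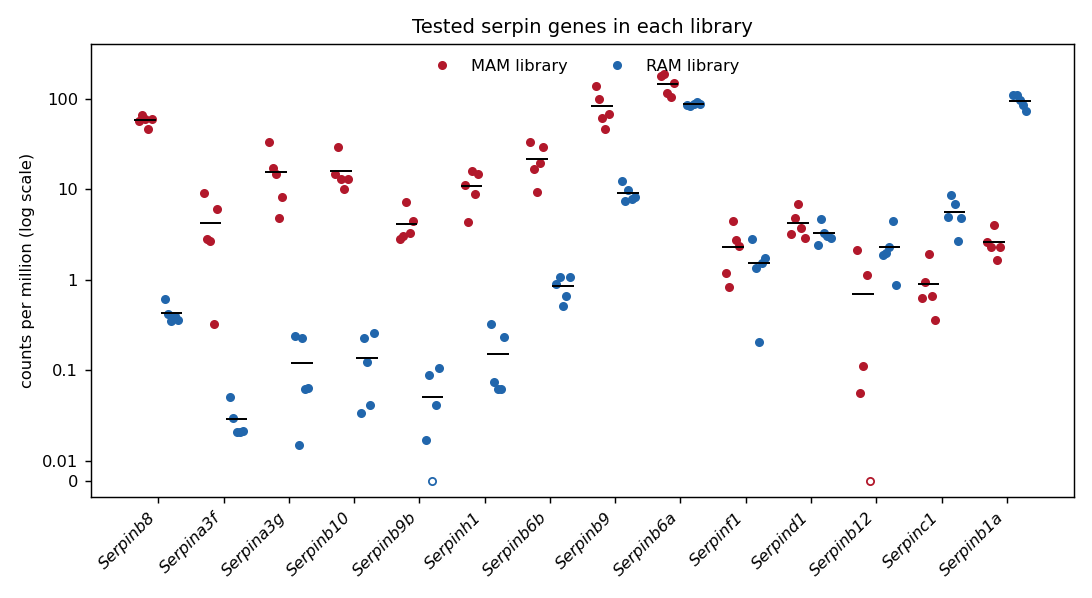
Level of each of the 14 tested serpin genes in every library, in CPM on a log scale, with MAM libraries in red, RAM libraries in blue, black lines at the group means and open circles for libraries with no count. Serpinb8 stands between 46.5 and 66.5 CPM in the MAM libraries and at most at 0.616 CPM in the RAM libraries, and Serpinb1a shows the opposite order.

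The 36 genes without a count were 22 of the 26 in clade A, which holds the alpha-1-antitrypsin genes and other products of the liver, 13 of the 26 in clade B and 1 of the 2 in clade I. Clade B supplied 8 of the 14 tested genes, of which 5 were higher in MAMs, 1 was lower and 2 were not called, beside 15.3% higher and 15.1% lower over all genes tested. Of these 8, 5 passed the FPKM requirement in 1 group alone, as did both tested genes of clade A. Clade A supplied 2, both higher in MAMs. The other 4 tested genes came from clades C, D, F and H.

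Levels were compared between genes by FPKM, which is scaled to transcript length. The summed FPKM of the 62 genes was 232, 206, 149.9, 125 and 177 in MAM 1 to MAM 5, and between 104 and 121 in the RAM libraries. The mean sum was 178 ± 42.6 in MAMs and 115 ± 6.87 in RAMs (SD, n = 5 each), and the MAM libraries differed from each other far more than the RAM libraries did. The genes left out are not in these sums or in the shares taken from them, which describe the 62 genes and not the whole family.

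The make-up differed more than the sum. In RAMs Serpinb6a held 53.5% ± 3.87 of the summed FPKM and Serpinb1a 39.0% ± 4.03, and the 3 highest genes of a library together held 94.7% ± 0.727. In MAMs the 3 highest held 78.0% ± 3.54 (SD, n = 5), Serpinb6a alone 57.4% ± 3.71, while Serpinb1a stood between 0.493% and 1.32%. Shares of several other genes were larger in MAMs than in RAMs. In MAMs Serpinb9 was at 11.2% ± 2.30, Serpinb8 at 9.31% ± 1.65 and Serpinb6b at 5.89% (3.04% to 7.93%). Serpina3g followed at 3.93% ± 2.12 and Serpinh1 at 3.92% ± 1.96. On average 11 ± 1 of the genes reached an FPKM of 1 in a MAM library and 4.6 ± 0.548 in a RAM library.

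**Figure D2:**
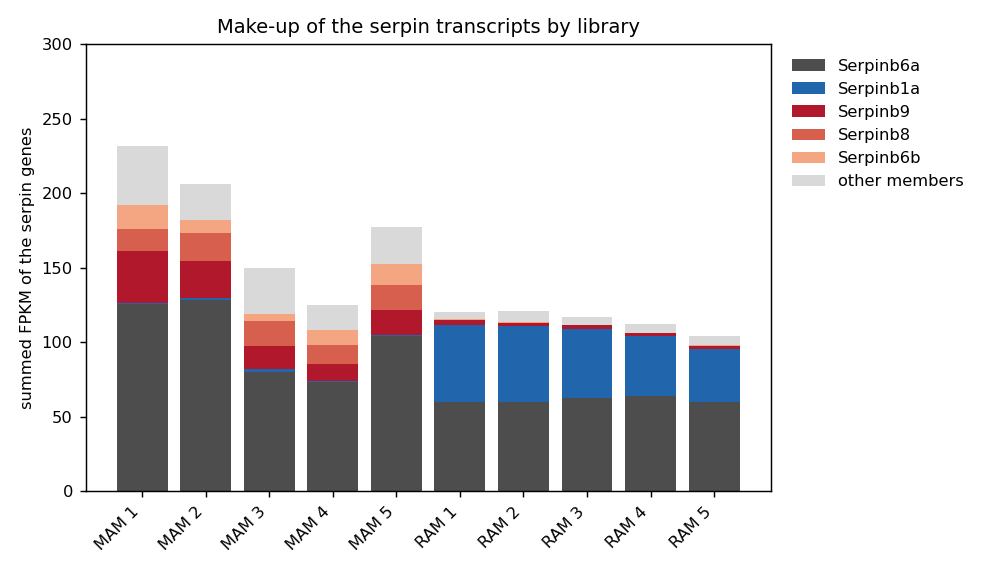
Summed FPKM of the serpin genes in each library, split into 5 genes with large shares and all others reported. Serpinb1a (blue) forms 39.0% of the sum in RAMs on average and at most 1.32% in a MAM library, and in MAMs Serpinb9, Serpinb8 and Serpinb6b (red shades) form 11.2%, 9.31% and 5.89%.

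Among the intracellular inhibitors, Serpinb6a and Serpinb6b act on trypsin-like and granule proteases in the cytosol, and Serpinb6a is found in almost every tissue. Serpinb6a was the most abundant of the 62 genes in both groups, with an FPKM of 102 ± 25.2 in MAMs and 61.3 ± 1.94 in RAMs. In CPM it was at 177, 184, 114, 105 and 150.2 in MAM 1 to MAM 5 and between 82.6 and 90.8 in the RAM libraries. The groups did not overlap, but the log2 fold change of 0.76 (SE 0.14, adjusted p = 2.72e-04, edgeR) stayed below the 2-fold limit, and its 95% interval ran from 0.46 to 1.05. Serpinb6b was at 32.9, 16.6, 9.24, 19.3 and 29.3 CPM in MAM 1 to MAM 5 and between 0.518 and 1.09 CPM in the RAM libraries. Its log2 fold change was 4.66 with an SE of 0.38 (adjusted p = 5.07e-08, edgeR). In MAMs it reached an FPKM of 10.4 ± 4.49 beside the 102 ± 25.2 of Serpinb6a, and in RAMs 0.452 ± 0.170. In GENCODE exons of Serpinb6a overlap those of 3 genes on the opposite strand, 1110046J04Rik, Nqo2 and Ripk1, and the largest overlap holds 14.1% of its exon bases. Exons of Serpinb6b overlap none. Ripk1 was at 106 ± 10.7 CPM in MAMs and 103 ± 15.0 CPM in RAMs, Nqo2 at 48.5 ± 4.53 and 44.5 ± 9.87 CPM and 1110046J04Rik at 0.692 ± 0.730 and 1.48 ± 0.903 CPM. The part of these genes in the Serpinb6a counts was not tested.

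Serpinb6a and Serpinb6b arose by duplication and are 86.3% identical over their coding sequences. The stretch of 27 codons that begins at the hinge of the reactive centre loop and runs through the variable part of the loop is shown for them, since the loop sets which protease is caught and the identity there is 60.5%. It was read from GENCODE M21 transcripts on GRCm38, 81 bases each, in lower case with the bases that differ within the pair at the same distance from the hinge in capitals. Of the first 27 bases 1 differs, and of the following 54 bases 31 differ. The coding identity is over 1128 aligned bases, whereas the loop identity of this and the other pairs compares bases by distance from the hinge, without gaps. Bases of a match that is shifted between the genes thus count as different, and the 2 identities are unlike measures.
Serpinb6a: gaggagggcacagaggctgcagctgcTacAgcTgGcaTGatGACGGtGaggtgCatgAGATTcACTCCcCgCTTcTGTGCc
Serpinb6b: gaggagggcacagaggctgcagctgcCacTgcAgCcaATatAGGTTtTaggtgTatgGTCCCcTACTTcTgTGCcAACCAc
MAMs thus held Serpinb6b transcripts with a loop of their own beside those of Serpinb6a, whose level differed 1.69-fold between the groups.

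Serpinb9 is the mouse inhibitor of granzyme B, a protease of cytotoxic lymphocytes, and is known to protect cells from their own or incoming granzyme. It stood at 138, 99.3, 61.2, 45.8 and 68.2 CPM in MAM 1 to MAM 5 and at 12.4, 7.36, 9.73, 7.87 and 8.14 CPM in RAM 1 to RAM 5. RAMs thus held clear amounts of it, and the groups still did not overlap. The log2 fold change was 3.18 with an SE of 0.27 (adjusted p = 9.51e-08, edgeR). Its neighbour Serpinb9b had 2.83, 3.04, 7.20, 3.31 and 4.50 CPM in MAM 1 to MAM 5, and between 0 and 6 counts in each RAM library. The mean of Serpinb9b was 4.17 ± 1.81 CPM in MAMs and 0.0511 ± 0.0460 CPM in RAMs, with a log2 fold change of 6.28 and an SE of 0.73 (adjusted p = 2.97e-06, edgeR). In GENCODE 8.30% of its exon bases overlap exons of a gene on the opposite strand.

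The Serpinb9 pair is 86.0% identical over the coding sequence and 48.1% identical over the 27 codons from the hinge, the lowest loop identity of the pairs shown. The loop value again ignores gaps, and from the hinge to the end there are 51 codons in Serpinb9 and 54 in Serpinb9b. Only 1 of the first 27 bases differs and 41 of the following 54 bases differ, with capitals as in the Serpinb6 pair.
Serpinb9: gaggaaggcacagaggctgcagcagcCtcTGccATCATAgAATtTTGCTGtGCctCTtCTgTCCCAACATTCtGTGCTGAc
Serpinb9b: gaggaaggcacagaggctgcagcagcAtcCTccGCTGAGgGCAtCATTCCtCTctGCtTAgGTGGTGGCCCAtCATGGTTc
Both were higher in MAMs, and at an FPKM of 20.6 ± 9.04 and 2.08 ± 0.732 Serpinb9 was the more abundant.

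Granzymes themselves were scarce in these libraries, and no granzyme gene reached the FPKM requirement. Gzmb, the target of Serpinb9 and named after its values were seen, was at 1.03 ± 1.18 CPM in MAMs and 0.380 ± 0.653 CPM in RAMs, with overlapping groups. Of 13 genes of cytotoxic granules in the files, 2 reached the FPKM requirement, of which 1 was higher in MAMs and 1 lower, with a median log2 fold change of -0.66, beside 15.3% higher and 15.1% lower over all genes tested. Srgn, the proteoglycan core that packs granule proteases and is also made by myeloid cells, was at 1101 ± 144 CPM in MAMs and 70.9 ± 10.2 CPM in RAMs (log2 fold change 3.96, SE 0.12, adjusted p = 7.05e-13, edgeR). Prf1, the pore-forming perforin, was at 0.287 ± 0.239 and 11.3 ± 0.985 CPM (log2 fold change -5.28, SE 0.50, adjusted p = 3.07e-07, edgeR). Among markers of T and NK cells Cd2 was lower in MAMs as well. The 10 marker genes, 3 of which (Prf1, Gzma and Nkg7) are also on the granule list, summed to 37.4, 31.6, 24.2, 13.3 and 16.5 CPM in MAM 1 to MAM 5 and to 265 to 325 CPM in the RAM libraries, of which Cd2, at 21.1 ± 9.22 and 282 ± 24.5 CPM, made up most. Of the 3 tested markers 2, Cd2 and Prf1, were lower in MAMs, while Cd3e, named after its values were seen, was not called at a log2 fold change of 0.37 (SE 0.87). No marker was at 0 in a whole group, and the part of such cells in the Prf1 difference was not tested.

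Serpinb8 was the most even between MAM libraries of the genes higher there. It inhibits furin and other proteases in the test tube. Its CPM was 56.9, 66.5, 59.3, 46.5 and 59.6 in MAM 1 to MAM 5 and 0.616, 0.420, 0.352, 0.396 and 0.362 in RAM 1 to RAM 5. Every MAM library lay far above every RAM library, and the coefficient of variation among MAM libraries was 12.5%, the lowest of the 8 genes that were higher in MAMs. The log2 fold change was 7.05 with an SE of 0.20 (adjusted p = 4.22e-13, edgeR). The gene (ENSMUSG00000026315) lies on the plus strand at chr1:107590006-107610484 in GRCm38.

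Serpinb10, whose human counterpart was named bomapin for its expression in bone marrow, was at 14.8, 28.9, 12.9, 10.1 and 12.9 CPM in MAM 1 to MAM 5 and between 0.0342 and 0.256 CPM in the RAM libraries. MAM 2 stood above the other MAM libraries, and the lowest MAM library was far above all RAM libraries. The log2 fold change was 6.84 with an SE of 0.54 (adjusted p = 3.82e-08, edgeR). GENCODE lists the mouse gene as a polymorphic pseudogene, and 8.34% of its exon bases overlap exons of another gene on the same strand. Reads from the shared part cannot be told apart and may be left out of the counts, so the level is uncertain.

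Serpinb1a, the cytosolic inhibitor of neutrophil elastase, cathepsin G and proteinase 3, differed most in the other direction. It was at 109, 109, 96.5, 85.0 and 73.6 CPM in RAM 1 to RAM 5 and at 2.64, 2.31, 4.05, 1.65 and 2.28 CPM in MAM 1 to MAM 5. Its FPKM was 44.95 ± 7.13 in RAMs, where of the 62 genes only Serpinb6a was higher, and 1.21 ± 0.465 in MAMs. The log2 fold change was -5.20 with an SE of 0.23 (adjusted p = 3.78e-11, edgeR), a 36.8-fold difference. The gene (ENSMUSG00000044734) is on the minus strand at chr13:32842092-32851185. Markers of alveolar macrophages were lower beside it. Of the 11 marker genes 10 were called lower in MAMs, beside 15.1% lower over all genes tested. Among the 10 is Itgax, the gene of CD11C, by which the 2 groups were sorted apart. The 11 genes summed to 838, 692, 606, 479 and 511 CPM in MAM 1 to MAM 5 and to between 12419 and 15414 CPM in the RAM libraries. The mean in MAMs was 4.43% of that in RAMs, and for Chil3, the most abundant marker over both groups, it was 1.15%. Marco, named after its values were seen, was the 1 marker not called, at 232 ± 122 and 368 ± 97.7 CPM (log2 fold change -0.67, SE 0.30). No marker was at 0 in a whole group, and the part of RAM transcripts in the Serpinb1a counts of MAMs was not tested.

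Serpinb1b, a close relative of Serpinb1a, is 90.6% identical to it over the coding sequence and 53.1% over the 27 codons from the hinge, where 4 of the first 27 and 34 of the following 54 bases differ. The loops are shown because the abundant transcript of RAMs came from 1 gene of the pair, with capitals as before.
Serpinb1a: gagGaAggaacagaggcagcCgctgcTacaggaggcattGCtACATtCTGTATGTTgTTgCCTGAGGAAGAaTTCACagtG
Serpinb1b: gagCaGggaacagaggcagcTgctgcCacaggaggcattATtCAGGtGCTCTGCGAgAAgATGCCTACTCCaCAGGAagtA
Serpinb1a had 3455 to 7280 counts in each RAM library, while Serpinb1b had at most 44. In MAMs Serpinb1b reached 267 counts in MAM 1, more than the 130 counts of Serpinb1a there, and at most 59 in the other MAM libraries.

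Of the proteases that Serpinb1a inhibits, 1 was found, and in MAMs alone above the FPKM requirement. Elane, the gene of neutrophil elastase, and Ctsg, the gene of cathepsin G, had no count in any library, and Prtn3, the gene of proteinase 3, was at 3.58 ± 2.01 CPM in MAMs and 0.0254 ± 0.0352 CPM in RAMs (log2 fold change 6.98, SE 0.86, adjusted p = 5.36e-06, edgeR). Elane and Ctsg are named here after their values were seen. Of 4 tested neutrophil markers 2 were higher in MAMs and 1 was lower, beside 15.3% higher and 15.1% lower over all genes tested. The 11 markers, Elane among them, summed to 58.3 ± 34.2 CPM in MAMs and 92.7 ± 22.7 CPM in RAMs, led by Mmp8, with Ly6g at 0 in RAMs.

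Serpinb12, an inhibitor of trypsin-like proteases, was at 2.16, 0.0562, 0.112, 1.12 and 0 CPM in MAM 1 to MAM 5 and at 1.90, 1.95, 2.30, 4.403 and 0.874 CPM in RAM 1 to RAM 5. MAM 1 and MAM 4 lay in the range of the RAM libraries and the other MAM libraries lay below it. The log2 fold change of -1.73 (SE 1.03) was not called (adjusted p = 0.167, edgeR). Without MAM 1 it was -2.82 and passed both limits, as it did with a block for the replicate number, at -3.34, and with limma on log2(FPKM + 0.1), at -1.88.

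In clade A, Serpina3f and Serpina3g, members of the mouse antichymotrypsin cluster, differed strongly. Serpina3g is also known as Spi2A, an inhibitor of cysteine cathepsins that leukocytes make when activated. It was at 33.3, 17.2, 14.6, 4.87 and 8.13 CPM in MAM 1 to MAM 5 and between 0.0150 and 0.240 CPM in the RAM libraries. Serpina3f was at 9.11, 2.83, 2.71, 0.326 and 6.05 CPM in MAM 1 to MAM 5, and the RAM libraries held 8 counts in all. Both varied widely among MAMs, MAM 4 being lowest in each, with coefficients of variation of 70.6% for Serpina3g and 81.2% for Serpina3f. The log2 fold changes were 6.99 (SE 0.70, adjusted p = 5.63e-07, edgeR) for Serpina3g and 7.05 (SE 0.89, adjusted p = 7.11e-06, edgeR) for Serpina3f. Serpina3n, another gene of the cluster and an inhibitor of granzyme B and elastase, was below the FPKM requirement, with 16 and 21 counts in MAM 1 and MAM 3, 6 and 68 in RAM 1 and RAM 5, and none elsewhere.

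Serpina3f and Serpina3g are 87.4% identical over the 744 bases annotated as coding in Serpina3g, and 61.7% over the 27 codons from the hinge. Of the first 27 bases 3 differ, and of the following 54 bases 28 differ, in capitals.
Serpina3f: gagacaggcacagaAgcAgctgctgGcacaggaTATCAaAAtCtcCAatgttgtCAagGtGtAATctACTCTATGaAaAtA
Serpina3g: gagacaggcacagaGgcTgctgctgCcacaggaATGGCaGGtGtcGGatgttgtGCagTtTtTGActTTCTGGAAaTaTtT
At an FPKM of 7.49 ± 5.27 Serpina3g exceeded Serpina3f, at 2.25 ± 1.83, in every MAM library.

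**Figure D3:**
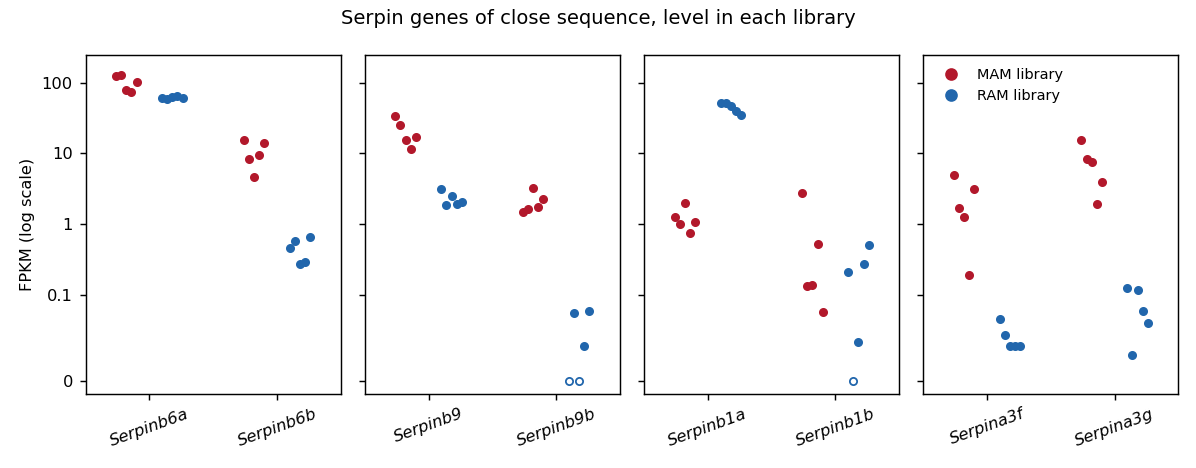
FPKM on a log scale of 4 pairs of serpin genes with closely related coding sequences, in MAM libraries (red) and RAM libraries (blue), with open circles for libraries at 0. Within the pairs, Serpinb6b and both Serpinb9 genes are higher in MAMs, Serpinb1a is higher in RAMs, and Serpina3g lies above Serpina3f in every MAM library.

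**Figure D4:**
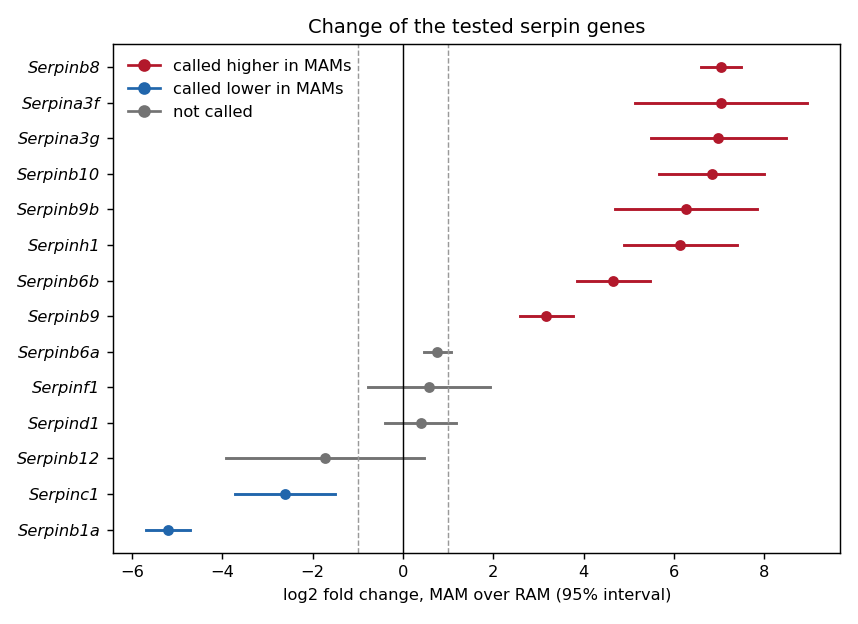
Log2 fold change of MAMs over RAMs for the 14 tested serpin genes, with 95% intervals from the edgeR fit and dashed lines at 2-fold in either direction and genes called higher in MAMs in red, called lower in blue and not called in grey. Serpinb1a is lowest at -5.20 with a narrow interval, and Serpina3f at 7.05 has a far wider interval than Serpinb8 at the same value.

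Serpinc1 encodes antithrombin, the plasma inhibitor of thrombin and factor Xa. It was at 0.630, 0.956, 1.92, 0.669 and 0.359 CPM in MAM 1 to MAM 5 and at 4.90, 8.62, 6.87, 2.69 and 4.75 CPM in RAM 1 to RAM 5. The groups did not overlap, and the log2 fold change was -2.62 (SE 0.52, adjusted p = 4.89e-04, edgeR). In GENCODE 34.4% of the exon bases of Serpinc1 overlap exons of Zbtb37 on the opposite strand, and no strand setting of the counting is given in the sources used here, so the transcripts cannot be told apart there. Zbtb37 itself was at 10.5 ± 2.59 CPM in MAMs and 14.7 ± 2.48 CPM in RAMs, and its part in the Serpinc1 counts was not tested. The 7 hepatocyte markers, of which 1 was tested and not called, were near 0 in both groups, at 2.11 ± 1.28 and 2.09 ± 1.48 CPM in sum. Apoa2, the most abundant over both groups, was at 0.936 ± 0.400 and 0.777 ± 0.396 CPM. Ahsg, Fgb and Cyp3a11 were at 0 in every library, Alb was at 0 in MAMs and Ttr, at 0 to 3.27 CPM in the MAM libraries, was at 0 in RAMs.

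Serpind1, the heparin cofactor II that inhibits thrombin, was at 4.29 ± 1.62 CPM in MAMs and 3.27 ± 0.853 CPM in RAMs, with a log2 fold change of 0.39 (SE 0.37, adjusted p = 0.388, edgeR) and a 95% interval from -0.40 to 1.18. Serpinf1, a secreted antiangiogenic protein without inhibitory activity known as PEDF, was at 2.31 ± 1.42 and 1.54 ± 0.936 CPM (log2 fold change 0.58, SE 0.63, adjusted p = 0.457, edgeR). The counts of Serpinf1 overlapped between the groups, but its FPKM did not, at 0.582 to 2.75 in MAMs and 0.123 to 0.555 in RAMs, and limma on log2(FPKM + 0.1) called it higher in MAMs at 1.94. Limma on log2(FPKM + 1) gave 0.93, which is below the 2-fold limit. For Serpinf1 the call therefore depends on the deposited values used and, with FPKM, on the offset.

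Serpinh1 encodes HSP47, a chaperone of the endoplasmic reticulum that binds procollagen and inhibits no protease. It was at 11.1, 4.35, 15.9, 8.76 and 14.7 CPM in MAM 1 to MAM 5 and between 3 and 19 counts in each RAM library, at a mean of 0.152 ± 0.121 CPM. The log2 fold change was 6.15 with an SE of 0.59 (adjusted p = 3.26e-07, edgeR). Of 15 tested genes that fold, modify or form collagen, 9 were higher in MAMs and 6 were not called by edgeR, with a median log2 fold change of 1.26, beside 15.3% higher over all genes tested. P4ha2, a collagen prolyl hydroxylase subunit, was at 13.3 ± 3.09 CPM in MAMs and 0.1254 ± 0.0693 CPM in RAMs (log2 fold change 6.70, SE 0.42, adjusted p = 2.80e-09, edgeR), Col4a1 at 6.98 ± 2.68 and 0.309 ± 0.268 CPM (4.48, SE 0.66) and Col1a1 at 5.21 ± 6.15 and 0.197 ± 0.195 CPM (4.74, SE 1.18, with overlapping groups). Ppib, the most abundant of the list over both groups by FPKM at 205 ± 10.2 and 124 ± 8.85, was not called at a log2 fold change of 0.63 (SE 0.21).

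Fibroblast and smooth muscle markers were higher in MAMs only in part. Of the 9 markers 4 were tested and 2 (Col1a1 and Pdgfra) called higher in MAMs, beside 15.3% higher over all genes tested. The 9 markers, of which 3 (Col1a1, Col1a2 and Col3a1) are also on the collagen list, summed to 54.1, 15.4, 48.1, 19.0 and 35.9 CPM in MAM 1 to MAM 5 and to between 12.5 and 17.7 CPM in the RAM libraries, so that MAM 2 lay in the range of RAMs. Tagln, the most abundant at 8.95 ± 1.496 and 7.93 ± 1.41 CPM, and Acta2 were not called, at log2 fold changes of 0.18 (SE 0.23) and 0.26 (SE 0.43), and Lum had no count in MAMs. The part of such cells in the Serpinh1 difference was not tested.

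The other 9 genes with at least 10 counts in some library stayed below the FPKM requirement. Serpine3 was the most highly counted of them, at 5.69, 6.07, 4.25, 3.20 and 3.66 CPM in MAM 1 to MAM 5 and at 6.25, 11.6, 7.23, 6.53 and 6.80 CPM in RAM 1 to RAM 5. Its groups did not overlap in CPM, by a narrow gap, but did in FPKM, at 0.167 to 0.592 in MAMs and 0.228 to 0.968 in RAMs. With no filter it was not called (log2 fold change -0.73, adjusted p = 0.0738, edgeR). In GENCODE 24.8% of the exon bases of Serpine3 overlap exons of Ints6 on the opposite strand. Ints6 was at 45.8 ± 3.82 CPM in MAMs and 71.4 ± 10.1 CPM in RAMs, and its part in the Serpine3 counts was not tested. Serpinb1b was among these genes. Serping1, the C1 inhibitor of complement and contact activation, reached 139 counts in MAM 1, 81 in RAM 2 and 50 in RAM 5, with none in RAM 1 and RAM 3. Serpini1, or neuroserpin, reached 107 counts in RAM 4 and 79 in MAM 4. Serpinf2, the alpha-2-antiplasmin that inhibits plasmin, was at 0.216 ± 0.250 CPM in MAMs and 0.856 ± 0.442 CPM in RAMs, with overlapping groups. Serpinb7 had 14 and 52 counts in MAM 1 and MAM 3 and none elsewhere, Serpinb6c 18, 9 and 2 counts in RAM 1, RAM 3 and RAM 5 and none elsewhere, and Serpine2, the protease nexin-1, at most 20 counts in any library. Of the 26 genes with a count, 3 stayed under 10 counts in every library.

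The serpin genes lie in clusters that arose by duplication. On chromosome 12, 25 genes of clade A span 0.80 Mb, of which 4 had a count and 2 were tested. Both were higher in MAMs, beside 15.3% higher and 15.1% lower over all genes tested, and both passed the FPKM requirement in 1 group alone. On chromosome 13, 15 genes of clade B span 1.16 Mb, of which 8 had a count and 5 were tested. Of these, 3 were higher and 1 lower in MAMs, beside 15.3% higher and 15.1% lower over all genes tested, and Serpinb6a was not called. Serpinb6b and Serpinb9b reached the FPKM requirement in MAMs alone. Direction changed within a short distance there: Serpinb1a, lower in MAMs, is separated by 114 kb from Serpinb6b (chr13:32965209-32979067), higher in MAMs, which is followed after 24.2 kb by Serpinb9 (chr13:33003250-33017957) and after another 9.46 kb by Serpinb9b (chr13:33027416-33041884), both higher. The clade B cluster on chromosome 1 holds 11 of the genes, of which 5 had a count and 3 were tested. Of these, 2 were higher, Serpinb8 and Serpinb10, beside 15.3% over all genes tested, and both reached the FPKM requirement in MAMs alone. Serpinh1 (chr7:99345376-99353239) stands alone on its chromosome among the 62.

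Duplicated genes can share reads. Of the 23 genes with at least 10 counts in some library, 18 held no stretch of 100 bases, the length of a read, in common with a transcript of another gene in GENCODE. Such stretches made up 3.58% of Serpina3f, 4.64% of Serpina3g, 9.41% of Serpinb10, 0.204% of Serpina3n and 0.150% of Serpini1. The counts of Serpina3f and Serpina3g are therefore uncertain by the small part of reads that would map to both or be left out.

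RefSeq promoters on GRCm38.p6, 250 bases before to 50 after a start site, were given for 52 of the 62 genes and 13 of the 14 tested, 60 promoters in all. Serpinb1a had no entry. The promoters were searched on both strands for the core of the interferon-stimulated response element, GAAANNGAAA, for the gamma-activated site that STAT factors bind, TTCNNNGAA, for AP-1, TGANTCA, and for the core bound by PU.1, GAGGAAG. The first was in 3 of the 60 promoters, among the tested genes in Serpinb6a and Serpinb9, and in 3.44% of all 32851 promoters. The second was in 9 promoters of 7 genes, among them Serpina3f, Serpina3g and Serpinb6a, and in 8.30% of all. Overlapping windows of Serpina3f hold the same site, which is thus counted more than once among the 9. AP-1 was in 10 promoters, each of another gene, among them Serpinb8, Serpinb10 and Serpinb12, and in 7.81% of all, and PU.1 in 8, also of as many genes, among them Serpinb6b and Serpinb9b, and in 13.6% of all. The core of a heat shock element, GAANNTTCNNGAA, was in 0 of the 60, Serpinh1 included, and in 0.603% of all. In Serpinb6a a match to the first motif overlaps one to the second.

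The promoters of 4 genes that were higher in MAMs are shown with every match to these motifs in capitals. Serpina3f and Serpina3g each carry a gamma-activated site, which begins 121 and 33 bases before the start site. In Serpina3f the same site begins 210 bases before the other start site, whose window is not shown.
Serpina3f, chr12:104214294-104214593, plus strand: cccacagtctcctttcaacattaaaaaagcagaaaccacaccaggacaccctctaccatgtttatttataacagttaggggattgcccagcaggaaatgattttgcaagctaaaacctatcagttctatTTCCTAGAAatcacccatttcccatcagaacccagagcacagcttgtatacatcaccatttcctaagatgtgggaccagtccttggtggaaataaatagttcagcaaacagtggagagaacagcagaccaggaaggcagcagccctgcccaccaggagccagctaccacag
Serpina3g, chr12:104235897-104236196, plus strand: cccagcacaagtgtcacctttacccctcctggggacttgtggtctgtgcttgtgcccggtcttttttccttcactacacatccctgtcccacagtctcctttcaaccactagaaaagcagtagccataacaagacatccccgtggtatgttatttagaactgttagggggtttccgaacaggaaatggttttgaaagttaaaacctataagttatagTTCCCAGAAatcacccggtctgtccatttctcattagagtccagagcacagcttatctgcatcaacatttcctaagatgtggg
Serpinb9 carries the interferon-stimulated core on the minus strand, 46 bases before the start site, and Serpinb8 carries AP-1 matches 23 bases before and 14 bases into the transcript.
Serpinb9, chr13:33004291-33004590, plus strand: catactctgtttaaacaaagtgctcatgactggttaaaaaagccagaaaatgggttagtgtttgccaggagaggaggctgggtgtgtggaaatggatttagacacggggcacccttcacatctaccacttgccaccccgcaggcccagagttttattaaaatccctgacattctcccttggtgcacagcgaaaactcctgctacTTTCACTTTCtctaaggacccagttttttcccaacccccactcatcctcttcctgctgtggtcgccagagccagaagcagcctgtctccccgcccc
Serpinb8, chr1:107589756-107590055, plus strand: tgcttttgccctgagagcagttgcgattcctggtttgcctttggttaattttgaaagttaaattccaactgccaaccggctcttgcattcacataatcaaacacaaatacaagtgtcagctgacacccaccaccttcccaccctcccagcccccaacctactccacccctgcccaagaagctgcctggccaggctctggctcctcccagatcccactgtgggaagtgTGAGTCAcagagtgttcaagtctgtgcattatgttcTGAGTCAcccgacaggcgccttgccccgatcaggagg
These matches describe the letters in the windows, and binding was not measured.

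The proteases, other inhibitors and receptors that work with serpins were taken as lists. The list of serpin-sensitive proteases came from general knowledge and also holds the cofactor F3. Its members were not each checked as targets of a serpin. Of its 22 tested genes, 7 were higher in MAMs, 2 lower and 13 not called by edgeR. The median log2 fold change of the 22 was 0.66. Over all genes tested 15.3% were higher and 15.1% lower. The number called on this list was 9, and it rose to 14 with the filterByExpr filter and to 17 with no filter, which both test more genes. Those fits took 13854 and 18035 of all genes. The shares above belong to the 11571 genes of the main test, so the rise cannot be set against them. The list genes gained with no filter went in both directions. Beside Prtn3, the largest differences upwards were those of F3 and Plau. Plau, the urokinase plasminogen activator, was at 128 ± 8.55 CPM in MAMs and 14.3 ± 3.61 CPM in RAMs (log2 fold change 3.17, SE 0.17, adjusted p = 4.25e-10, edgeR), and F3, the tissue factor that starts coagulation as cofactor of factor VIIa, at 6.23 ± 5.10 CPM in MAMs and 0.221 ± 0.188 CPM in RAMs (log2 fold change 4.78, SE 0.76, adjusted p = 7.05e-05, edgeR). F7, the gene of factor VII, was at 145 ± 18.9 CPM in MAMs and 488 ± 59.1 CPM in RAMs (log2 fold change -1.75, SE 0.11), and Ctsk, a collagen-cutting cathepsin, at 27.1 ± 9.59 and 144 ± 90.8 CPM (-2.41, SE 0.35). Ctss, the most abundant protease of the list, was at an FPKM of 3914 ± 151 in MAMs and 2219 ± 260.4 in RAMs and not called at a log2 fold change of 0.86 (SE 0.08).

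Inhibitors of other families were divided. Of 24 tested, 11 were higher in MAMs, 5 lower and 8 not called by edgeR, with a median log2 fold change of 0.76, beside 15.3% higher and 15.1% lower over all genes tested. Wfdc17, a small secreted whey acidic protein, was the most abundant over both groups and stood at 1391 ± 235 CPM in MAMs and 30.8 ± 6.79 CPM in RAMs (log2 fold change 5.50, SE 0.17). Its FPKM of 4537 ± 797 in MAMs was far more per length than that of any of the 62 serpin genes. Spink2, a Kazal-type inhibitor, was at 2.79 ± 1.42 and 0.0449 ± 0.0678 CPM (5.79, SE 0.90), and Stfa3, a stefin against cysteine cathepsins, at 0.694 ± 0.304 CPM in MAMs with no count in RAMs, at least 12.2-fold higher against 3 counts per library. Wfdc10 was at 0.103 ± 0.0757 CPM in MAMs and 13.01 ± 3.69 CPM in RAMs (-6.93, SE 0.51), Wfdc21 at 0.241 ± 0.300 and 13.5 ± 4.05 CPM (-5.79, SE 0.64) and Spint2, a membrane-bound Kunitz inhibitor, at 0.0290 ± 0.0289 and 2.76 ± 1.32 CPM (-6.55, SE 0.87). MAM 2 held 0.768 CPM of Wfdc21 and the other MAM libraries at most 0.179 CPM. RAM 2 held 0.165 CPM of Spink2 and the other RAM libraries at most 0.0213 CPM. The median with Stfa3 at its bound was 0.76 as well.

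**Figure D5:**
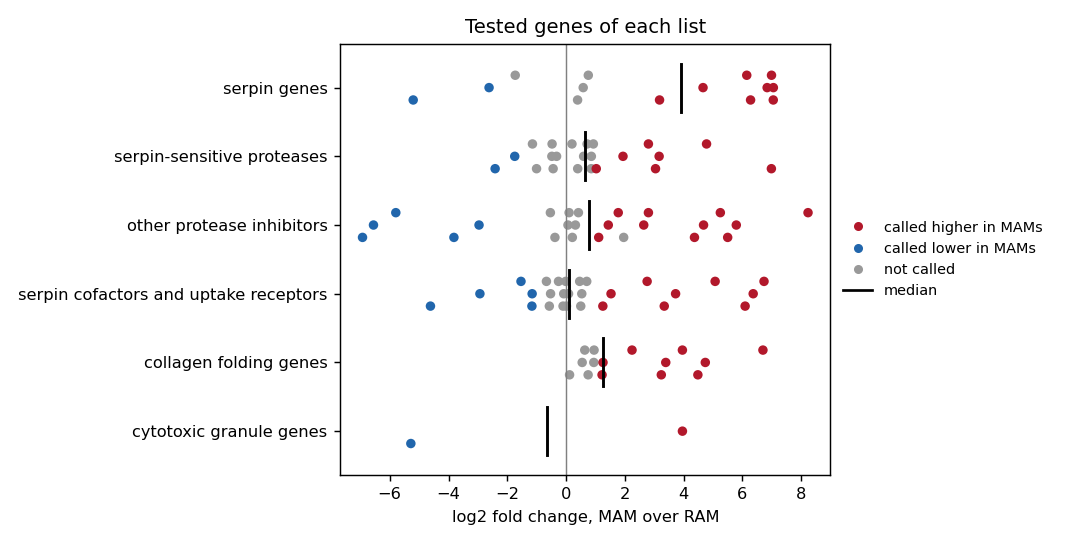
Log2 fold change of MAMs over RAMs for each tested gene of the serpin family and of 5 related lists, with black bars at the list medians and genes called higher in MAMs in red, called lower in blue and not called in grey. The serpin genes have a median of 3.92 and the lists medians between -0.66 and 1.26, beside -0.02 over all genes, and Stfa3, which had no count in RAMs, is drawn at its fitted value. Of the 14 serpin genes 11 reached the FPKM requirement in 1 group alone, which favours genes that differ, so the medians cannot be compared closely.

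Of 27 tested genes on the list of cofactors and uptake receptors, 9 were higher in MAMs, 5 lower and 13 not called by edgeR, with a median log2 fold change of 0.08, beside 15.3% higher and 15.1% lower over all genes tested. Sdc1 and Sdc4, which carry heparan sulphate, were at 79.0 ± 19.4 and 272 ± 50.4 CPM in MAMs and at 1.17 ± 0.4501 and 3.31 ± 1.13 CPM in RAMs (log2 fold changes 6.09, SE 0.28, and 6.37, SE 0.22). Stab1, a scavenger receptor, was at 372 ± 117 and 3.48 ± 0.435 CPM (6.73, SE 0.23). Sort1, a sorting receptor, was at 66.4 ± 6.45 CPM in MAMs and 1625 ± 91.5 CPM in RAMs (-4.61, SE 0.09), Fpr1 at 42.5 ± 8.74 and 324 ± 44.0 CPM (-2.93, SE 0.15) and Fpr2 at 47.4 ± 8.42 and 137 ± 30.6 CPM (-1.53, SE 0.15). S100a10, which holds plasminogen at the cell surface with annexin A2, was the most abundant over both groups by FPKM, at 550 ± 72.6 and 398 ± 33.0, and was not called (0.50, SE 0.09).

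Markers of other cells differed between the groups beside the serpin genes. The 8 monocyte markers were all called higher in MAMs by edgeR, beside 15.3% higher over all genes tested. Ly6c2 and Ly6c1, the genes of the sorting marker LY6C, are among them, and the groups overlapped for Ly6c1. The 8 markers summed to 959, 1100.4, 917, 1002 and 1058 CPM in MAM 1 to MAM 5 and to between 21.2 and 38.0 CPM in the RAM libraries, with Ccr2 the most abundant. The 8 platelet markers, of which 3 were tested and 2 higher in MAMs, summed to 351, 522, 790, 874 and 1048 CPM in MAM 1 to MAM 5 and to between 13.8 and 18.2 CPM in the RAM libraries. In MAMs this was almost all Pf4, at 565 ± 217 and 6.24 ± 1.49 CPM, and Ppbp, at 148 ± 68.2 and 2.29 ± 0.732 CPM. Ppbp was named after its values were seen. The means of the other 6 genes were at most 3.34 CPM in either group, 3 of them lower in MAMs and 3 higher, and Gp6 and Gp1bb were at 0 in RAMs. The part of monocytes and platelets in the serpin levels of MAMs was not tested.

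The counts of called markers that follow stand beside 15.3% higher and 15.1% lower over all genes tested. Markers of epithelial and tumour cells, of which 3 of 4 tested were lower in MAMs, summed to 15.8 ± 5.41 CPM in MAMs and 644 ± 50.9 CPM in RAMs, led by Krt19, with Krt5 and Cldn3 at 0 in every library, Cldn4 at 0 in MAMs and Krt14 at 0 in RAMs. Krt18, the 1 tested marker not called, was at 8.84 CPM in MAM 1, at most 0.201 CPM in the other MAM libraries and at most 0.438 CPM in the RAM libraries. The untested Krt8 was higher in MAMs, at 0.615 to 3.31 CPM in the MAM libraries and at most 0.205 CPM in the RAM libraries. Krt18 and Krt8 are named after their values were seen. Macrophage markers, 7 of 11 of them higher and 1 lower, were at 31177 ± 3279 and 31784 ± 3441 CPM, led by Lyz2. Endothelial markers, of which 4 were tested, 3 higher and 1 lower, were at 72.8 ± 31.8 and 158 ± 33.3 CPM, with Cldn5 at 0 in MAMs. The most abundant over both groups was Vwf, the 1 that was lower, at 19.3 ± 7.69 and 151 ± 32.3 CPM. Dendritic cell markers, of which 2 were tested, 1 higher and 1 lower, were at 9.18 ± 4.97 and 25.1 ± 4.03 CPM, with Siglech at 0 in MAMs. The most abundant over both groups was Clec9a, the 1 that was lower, at 0.335 to 1.71 CPM in the MAM libraries and 12.9 to 24.1 CPM in the RAM libraries. Lung epithelial markers, of which 6 were tested, 1 higher and 4 lower, were at 29.0 ± 7.73 and 38.7 ± 9.23 CPM. The most abundant over both groups was Hopx, the 1 that was higher, at 16.1 to 27.3 CPM in the MAM libraries and 0.334 to 2.49 CPM in the RAM libraries. B cell markers, with Cd79a the most abundant over both groups, summed to 11.2 ± 7.07 and 11.8 ± 6.13 CPM. Erythroid markers summed to 3.05 ± 1.30 and 3.70 ± 1.503 CPM, all of it Alas2, since the other 7 genes had no count. The deposited FPKM of globin genes was above 0, as for Hbb-b1 at 2.43 ± 2.17 in MAMs and 0.235 ± 0.181 in RAMs and Hbb-bs at 2.94 ± 5.79 and 0.00303 ± 0.00177, both named after their values were seen, so the counts do not show the level of globin transcripts. Mast cell and basophil markers, with Gata2 the most abundant over both groups and Mcpt4 at 0 in every library and Mcpt8, Tpsab1, Tpsb2, Cma1 and Ms4a2 at 0 in RAMs, summed to 1.95 ± 2.19 and 0.262 ± 0.211 CPM.

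The serpin genes did not peak in the same library of a group. Of the 8 genes higher in MAMs, MAM 1 held the highest level of 4, MAM 2 and MAM 3 of 2 each, and MAM 4 the lowest level of 5. Serpinb9, Serpina3f, Serpina3g and Serpinb6b peaked in MAM 1, Serpinb8 and Serpinb10 in MAM 2, and Serpinb9b and Serpinh1 in MAM 3. In all 14 tested genes MAM 4 and MAM 5 were never the highest MAM library.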

How the data were processed

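The RNA of sorted macrophages was sequenced in 5 MAM and 5 RAM libraries as 100-base read pairs. The authors aligned reads to GRCm38 with TopHat2 2.0.13 and deposited counts of uniquely mapped reads per gene, made with HTSeq 0.6.1 on UCSC RefGene models. FPKM per gene came from Cufflinks 2.2.1, also run by the authors. Both were used as deposited, and lines of the count files that name no gene were left out. These lines held 54.6% to 58.3% of a MAM library and 62.2% to 64.1% of a RAM library, and the TMM factors were 0.897 to 0.943 and 1.07 to 1.10, so both separate the groups. What this does to the fold changes was not tested beyond the other scalings below. Where a library had a count of 0, up to 3 counts are possible by counting error alone, and duplicates of 1 molecule could not be recognised. CPM are per 1000000 counts on tested genes, with library sizes multiplied by TMM factors.

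The test took 11571 genes that had at least 1 count and whose mean FPKM reached 1 in MAMs or RAMs, with edgeR 4.0.16 in R 4.3.3 (quasi-likelihood test, TMM normalization, two-sided, no covariate, Benjamini-Hochberg adjustment over all genes tested). A gene was called with a fold over 2 and an adjusted p under 0.05. SEs were taken as the log2 fold change over the root of the F statistic. This left out 51 genes with an FPKM of at least 1 and no count. The test was run on simulated counts with the same spread for all genes and with smaller changes than the largest seen here. That check does not cover genes such as Serpina3f. Alternatives were DESeq2 1.42.0, RLE and upper-quartile scaling, filterByExpr or no filter, a block for the replicate number, limma 3.58.1 on log2(FPKM + 1) and log2(FPKM + 0.1), and each library left out in turn.

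The serpin genes and all lists were chosen with earlier results of these data known. The lists, from general knowledge, were serpin-sensitive proteases, other protease inhibitors, serpin cofactors and uptake receptors, cytotoxic granule genes, collagen folding genes, and markers of macrophages, alveolar macrophages, monocytes, dendritic cells, neutrophils, mast cells and basophils, T and NK cells, B cells, platelets, erythroid cells, endothelium, fibroblasts and smooth muscle, lung epithelium, epithelial and tumour cells, and hepatocytes. Of the 62 serpin genes, each tested gene was named, and each other with at least 10 counts in a library. Of each pathway list the 3 called genes with the largest change in each direction and the most abundant gene by FPKM were named, and of each marker list the most abundant gene by CPM, both taken over all libraries. Positions, overlaps and coding sequences came from GENCODE M21, promoters from RefSeq, both on GRCm38. Python 3.11.15 with matplotlib 3.10.9 drew the figures.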

Additional observations from a re-analysis of the deposited data

Results flagged for a closer look

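In 46 groups of 5 libraries, those of the 23 serpin genes with at least 10 counts in some library, 8 groups held a library whose gap to its nearest neighbour exceeded 0.71 of the range of the group. Chance flags about 1 in 20 groups where values are normally distributed, which low counts are not, and 2 of the groups had no count and could not be among the 8, so the numbers cannot be compared closely.

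Of the tested genes, Serpinb10 stood at 28.9 CPM in MAM 2 with the nearest MAM library at 14.8 CPM, and without MAM 2 its log2 fold change was 6.51 in place of 6.84. Serpinb8 stood at 0.616 CPM in RAM 1 with the nearest RAM library at 0.420 CPM, and without RAM 1 its log2 fold change was 7.22 in place of 7.05.

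The other 6 concerned genes below the FPKM requirement. MAM 1 held 5.43 CPM of Serpinb1b, with the nearest MAM library at 1.07 CPM, and 2.83 CPM of Serping1, with the nearest at 0.487 CPM. Serpinb7 stood at 1.16 CPM in MAM 3, with the nearest at 0.285 CPM. Among RAMs, Serpine3 reached 11.6 CPM in RAM 2 beside 7.23 CPM, Serpini1 reached 2.23 CPM in RAM 4 beside 0.240 CPM, and Serpina3n reached 1.45 CPM in RAM 5 beside 0.103 CPM. These values rest on 770 counts for Serpine3 and on 52 to 267 counts for the others.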

How the results depend on the processing

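The direction of each tested serpin gene stayed the same under all alternatives, and 248 of these values kept their side of the limits. The other 4 passed both limits where they had not before: Serpinb12 with the replicate block (-3.34), with limma on log2(FPKM + 0.1) (-1.88) and without MAM 1 (-2.82), and Serpinf1 with limma on log2(FPKM + 0.1) (1.94). The number of genes called on the protease list was 9, and 14 with filterByExpr and 17 with no filter, both of which test more genes. With no filter 9 serpin genes were called higher and 3 lower. Serpinb7 and Serpinb6c, with no count in 1 group and counts in 2 and 3 libraries of the other, then passed at adjusted p-values of 0.0321 and 0.0452 (edgeR). The filterByExpr fit took 13854 genes and the fit with no filter 18035. The shares of 15.3% higher and 15.1% lower belong to the 11571 genes of the main test, so they do not stand beside these numbers. With each library left out in turn, 8 serpin genes were called higher each time and 2 to 3 lower, and 3384 to 3495 of all genes were called. Over the lists this gave 9 to 10 genes of the protease list, 16 other inhibitors, 14 cofactors and receptors, 2 granule genes and 9 to 11 collagen genes. For the 10 called serpin genes the fold change was smallest with limma on log2(FPKM + 1), where Serpina3f came to 1.46 in place of 7.05. Upper-quartile scaling moved the median log2 fold change of all genes to -0.18. Replicate numbers did not pair the groups, with correlations across genes between -0.020 and 0.044 for the same number, where genes are not independent replicates. DESeq2 gave no adjusted p for 9 genes. Genes with few counts in RAMs, such as Serpina3f with 8 in all, have uncertain fold changes.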
